A study of Mus musculus with 3 samples.

Results

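Major histocompatibility complex (MHC) and antigen processing genes were examined in cultured dorsal root ganglion neurons as a set of 10: the class I heavy chain genes H2-K1 and H2-D1, the class I light chain gene B2m, the peptide transporter genes Tap1 and Tap2, the tapasin gene Tapbp, the immunoproteasome genes Psmb8, Psmb9 and Psmb10, and the class II invariant chain gene Cd74. They were chosen by name. All 10 had a probe set (a group of array probes summarised to 1 value), each gene had 1, and they stand among 30142 genes named by a probe set with a single symbol. The cells were primary neurons of male ICR mice aged 8 to 10 weeks, and no genetic change is given for the animals. All cultures received DMEM with B27 for 72 hours. One culture had this control medium alone, one had 1 µg/ml recombinant SEMA3E (semaphorin 3E, a secreted guidance protein), and one had SEMA3E at the same 1 µg/ml plus a SEMA3E-blocking IgG, also at 1 µg/ml. Each medium has 1 array, so every difference below lacks an error and a test, and precision is limited by the number of arrays. The labels do not say how many animals were pooled or whether the 3 cultures came from the same animals, and no array had the IgG without SEMA3E.

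MHC class I molecules show peptides from inside the cell to CD8 T cells. The proteasome cuts proteins into peptides, the TAP1-TAP2 transporter carries them into the endoplasmic reticulum, and tapasin holds an empty class I molecule beside the transporter until a peptide is bound. Interferons raise most genes of this route, and in immunoproteasomes PSMB8, PSMB9 and PSMB10 replace the catalytic subunits of the ordinary proteasome. Neurons are known for low class I levels that interferon or injury can raise, while class II molecules, which CD74 escorts, belong to macrophages, dendritic cells and B cells.

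The arrays held 65956 probe sets with values from about 6 to 496402 intensity units. A background floor of 43.7 units, or 5.48 on the log2(value + 1) scale, is the 95th percentile over 492 vomeronasal receptor genes, which sensory ganglia are not known to express. In all, 17653 genes lay at or above it. Checked against the labelled cell type, all 11 neuron markers measured, among them Tubb3 and Nefl, lay above the floor. This does not set neurons apart, because most markers of other resident cells did too. Of those measured, 5 of 5 satellite glia, 5 of 6 Schwann cell, 7 of 7 fibroblast and 8 of 9 endothelial and mural markers lay above the floor. Of 11 T and NK cell markers 1 did, of 10 dendritic and B cell markers 3 did, and of 15 macrophage markers 8 did, with the pan-leukocyte gene Ptprc and the macrophage receptor gene Csf1r below it. The deposited values are graded: between 66.9% and 68.3% of the probe sets on an array shared their exact value with another probe set of that array. Among the members this ranged from H2-D1, B2m and Psmb10, which shared their value with 0 other probe sets on each array, to Cd74. How the values came to be graded, and identical across arrays for most genes, was not tested, so an identical value is not read here as an equal RNA amount.

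Most array values of the set were identical in the 3 media, at a share near that of all genes. Of the 10 probe sets 8 held an identical value on all 3 arrays, and of the 9 above the floor 7 did (77.8%), beside 74.9% of all genes above the floor. Psmb10 was lower on both arrays with SEMA3E, and H2-K1 was slightly lower on the array with the IgG.

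**Figure D1:**
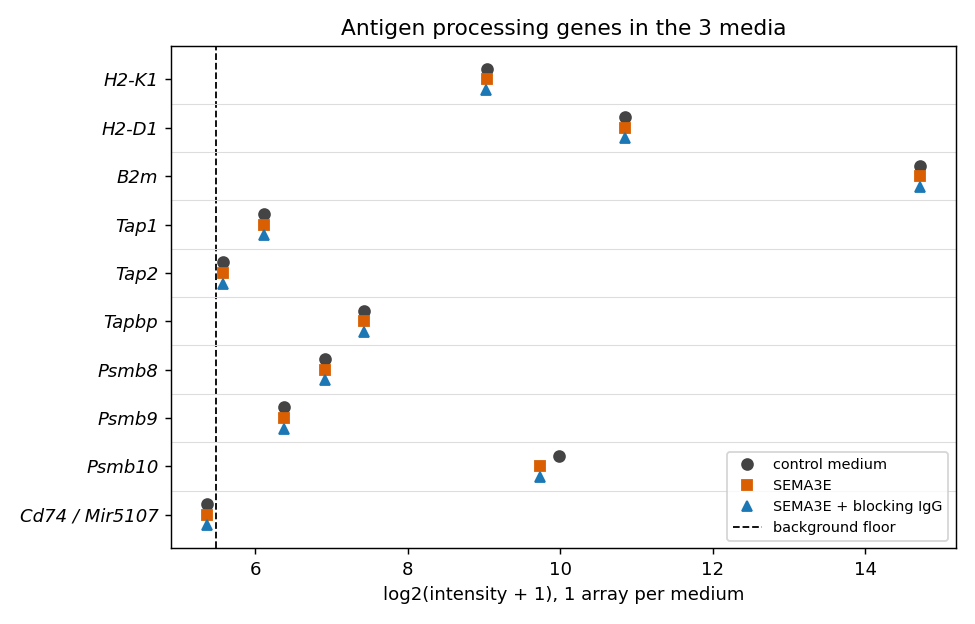
Values of the 10 probe sets on the log2(intensity + 1) scale (x axis), 1 point per array: control medium (circles), SEMA3E (squares) and SEMA3E with blocking IgG (triangles); the dashed line is the background floor at 5.48. Psmb10 alone shows a visible gap, 9.98 in control medium against 9.73 on the other arrays, and the probe set of Cd74 and Mir5107 lies left of the floor; levels of different genes are not comparable because their probes differ.

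The class I chains come first. H2-K1 and H2-D1 encode the classical heavy chains, which bind the peptide, and B2m encodes beta-2 microglobulin, the light chain that every class I molecule needs to reach the surface. Their upstream sequences are shown because they carry the kinds of element through which class I genes are known to be induced. They are the 250 bases before the RefSeq start (GRCm38.p6), read on the gene's own strand: H2-K1 at chr17:34000348-34000597 (minus strand), H2-D1 at chr17:35262844-35263093 (plus strand) and B2m at chr2:122147437-122147686 (plus strand). For H2-K1 there are 2 RefSeq windows, and the first listed is shown. Capitals mark, on either strand, matches to 5 motifs: the NF-kappaB consensus, the ISRE-like interferon response element in a long form, a short form of that element (GAANNGAAA), the CRE-like element (TGACG) and the CCAAT box.
H2-K1: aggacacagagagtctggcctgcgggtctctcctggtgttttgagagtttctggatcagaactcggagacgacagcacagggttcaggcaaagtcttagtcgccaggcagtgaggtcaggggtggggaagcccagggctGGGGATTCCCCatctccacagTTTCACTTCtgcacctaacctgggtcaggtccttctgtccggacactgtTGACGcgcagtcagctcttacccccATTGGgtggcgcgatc
H2-D1: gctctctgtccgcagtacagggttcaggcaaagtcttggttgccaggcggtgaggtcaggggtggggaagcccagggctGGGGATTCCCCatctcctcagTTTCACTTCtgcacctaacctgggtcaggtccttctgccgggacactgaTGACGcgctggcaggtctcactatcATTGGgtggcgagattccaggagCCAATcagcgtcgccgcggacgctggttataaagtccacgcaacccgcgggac
B2m: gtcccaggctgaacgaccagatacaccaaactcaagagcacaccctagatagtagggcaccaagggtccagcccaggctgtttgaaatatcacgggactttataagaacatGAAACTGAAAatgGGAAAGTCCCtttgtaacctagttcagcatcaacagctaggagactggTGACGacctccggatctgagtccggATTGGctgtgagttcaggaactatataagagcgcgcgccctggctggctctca

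All 3 sequences hold the NF-kappaB consensus, an interferon element, a CRE-like element and a CCAAT box. In B2m the interferon element comes before the NF-kappaB match, and in both heavy chain genes it comes after. H2-K1 and H2-D1 share an unbroken run of 47 bases, and among the other pairs, each gene read on its own strand, the longest is 11 bases; Tap1 and Psmb9, whose windows overlap on opposite strands, are described separately. Of all 32851 promoter windows in the RefSeq table, 8.46% hold the NF-kappaB consensus, 3.44% the long and 7.52% the short interferon form, 20.8% the CRE-like element and 37.4% the CCAAT box. The short form and the NF-kappaB consensus were added after these sequences were read. Overlaps between motifs were not removed, and a match is no evidence that a factor binds.

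The array values of these genes were identical or close to it in the 3 media. H2-D1 stood at 1846 units (10.85 on the log2 scale) in control medium, with SEMA3E and with SEMA3E and IgG. Its probe set is annotated with 2 gene numbers, so its value may hold more than H2-D1. B2m stood at 14.71 on the log2 scale on all 3 arrays, 9.23 above the floor. H2-K1 stood at 525 units in control medium and with SEMA3E, and at 519 units with SEMA3E and IgG. The last array was thus the lowest, by a log2 difference of −0.02, and 15.8% of genes above the floor were at least as far apart between the IgG array and control. The class I family is made of closely related genes, and probes for H2-K1 or H2-D1 may read other members as well.

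Other class I heavy chain genes mostly held identical values too, as most genes did. Of 33 class I and class I-like genes listed, 23 had a probe set of their own and 15 lay above the floor. With SEMA3E against control 13 of these 15 were identical (86.7%), beside 81.4% of all genes. Of the others 1 was higher and 1 lower, and the median difference was 0, as it was over all genes. H2-M1, a nonclassical class I gene, stood at 70.6 units in control medium, 73.5 with SEMA3E and 70.6 with SEMA3E and IgG, a log2 difference of 0.06 with SEMA3E alone. Cd1d2, a lipid-presenting relative, stood at 161 units in control medium and 160 on the other arrays, and lost that direction under median centring. H2-K2 (213 units), the receptor gene Mr1 (219 units), which presents vitamin metabolites to T cells, and Fcgrt (169 units), which encodes the IgG-recycling neonatal Fc receptor, held identical values on all arrays. Probe sets annotated to several H2-Q or H2-T genes at once are not analysed here.

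The peptide transporter genes lay near background. Tap1 stood at 68.0 units (6.11 on the log2 scale) on all 3 arrays, and 5 of the 492 vomeronasal genes (1.02%) lay at or above that level. Tap2 stood at 46.8 units (5.58) on all 3 arrays, 0.09 above the floor, with 22 vomeronasal genes (4.47%) at or above it. Both transporter genes thus had little signal beyond background. On the control array Tap1 shared its exact value with 38 other probe sets and Tap2 with 47. Tapbp, above the floor by 1.93, stood at 170.0 units on every array.

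Tap1 and Psmb9 lie side by side and are read away from each other. Their RefSeq starts are separated by 225 bases at chr17:34187331-34187555 (GRCm38.p6, plus strand, the strand of Tap1), shown because both genes draw on this one stretch. Capitals mark the CCAAT box, the GC box (GGGCGG) and the CRE-like element on either strand.
Tap1 and Psmb9: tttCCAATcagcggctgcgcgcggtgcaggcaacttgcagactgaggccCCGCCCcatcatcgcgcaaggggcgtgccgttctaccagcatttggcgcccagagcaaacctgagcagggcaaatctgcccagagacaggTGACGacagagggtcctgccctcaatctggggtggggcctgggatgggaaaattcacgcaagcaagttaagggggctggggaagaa

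The stretch holds 1 CCAAT box, 1 GC box (found in 35.7% of all promoter windows) and 1 CRE-like element, and none of the other motifs in these letters. Psmb9 stood at 81.9 units (6.37 on the log2 scale) on all 3 arrays, with 2 vomeronasal genes at or above it. Like Tap1, it thus had a low value that was identical on each array. Psmb8, the immunoproteasome subunit with chymotrypsin-like activity, stood at 119 units (6.91) on all 3 arrays, 1.42 above the floor. Its promoter window held a GAS element (TTCNNNGAA, present in 8.3% of all windows), the one member of the 8 with a promoter in the table to do so.

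Psmb10, the immunoproteasome subunit with trypsin-like activity, was the member that differed. It lies outside the MHC region, on chromosome 8, whereas the genes of Tap1, Psmb8 and Psmb9 lie together on chromosome 17. It stood at 1006 units in control medium, 848 with SEMA3E and 848 with SEMA3E and IgG. The control array was thus the high one, and both arrays with SEMA3E held the same value. On the log2 scale the values were 9.98, 9.73 and 9.73, a difference of −0.25 against control on both (1.19-fold lower), and the array with IgG did not lie nearer to control than the array without it. Both differences share the control array. Over all genes above the floor, 143 (0.81%) were at least as much lower with SEMA3E against control, and 173 (0.98%) with SEMA3E and IgG against control. Between its values lie 511 other distinct values of the control array, and between those of H2-K1 lie 46.

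The upstream 250 bases of Psmb10, at chr8:105938393-105938642 (GRCm38.p6, minus strand), are shown as those of the member that differed.
Psmb10: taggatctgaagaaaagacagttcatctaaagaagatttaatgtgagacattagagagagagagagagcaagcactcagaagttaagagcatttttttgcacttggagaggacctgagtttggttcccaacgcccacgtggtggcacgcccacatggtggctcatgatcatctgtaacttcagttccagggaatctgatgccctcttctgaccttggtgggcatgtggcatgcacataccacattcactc

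No letters are in capitals, because none of the 7 motifs searched was found in this window: both interferon forms, the GAS element, the CRE-like element, the CCAAT box, the GC box and the NF-kappaB consensus. This says only that the letters are not in the window. RefSeq gave promoters for 8 of the 10 genes, without Tap2 and Cd74.

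By the 1.1-fold rule (a log2 difference of at least 0.14), 1 of the 9 members above the floor was called for SEMA3E against control, lower, where 3.74% of all genes were called either way and 2.36% lower. For SEMA3E with IgG against SEMA3E alone 0 of 9 were called (4.76% of all genes), where 2.08% were lower, and for SEMA3E with IgG against control 1 of 9, again Psmb10 (4.55% of all genes, 2.45% lower). A count of 1 in 9 rests on a single gene and is not read as a property of the set. At 1.5-fold 0 of 9 were called in each comparison, beside 0.17%, 0.136% and 0.204% of all genes.

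**Figure D2:**
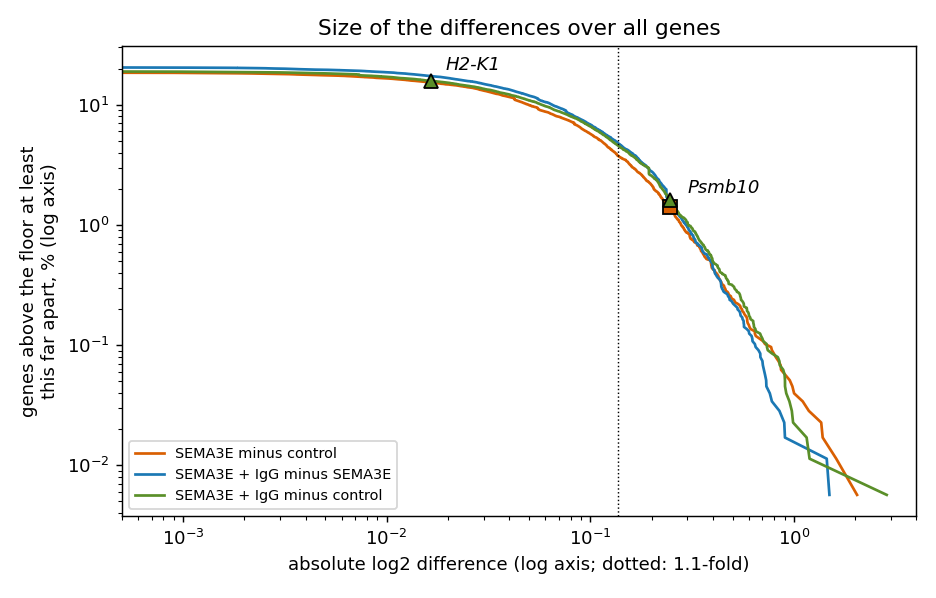
Percentage of the 17653 genes above the floor (y axis, log scale) whose absolute log2 difference is at least the value on the x axis (log scale), 1 line per comparison; the dotted line is 1.1-fold, squares and triangles mark members. Psmb10 sits where 1.4% (SEMA3E against control) and 1.61% (SEMA3E with IgG against control) of genes are at least as far apart either way, and H2-K1 sits where 15.8% are.

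The 5 genes above the floor with the pattern most like Psmb10, by the distance between their pairs of log2 differences from control over the 3 arrays, were Mt3, Col14a1, Serpinb5, Ifi27l2a and Cmpk2. Mt3, a metallothionein gene, stood at 9.12 on the log2 scale in control medium and at 8.87 on both other arrays (distance 0.0033). Col14a1, a collagen gene, stood at 10.21 and then 9.98 on both others. Serpinb5 stood at 5.81 and then 5.55, close to the floor of 5.48. The interferon-inducible genes Ifi27l2a (6.48, 6.24 and 6.22) and Cmpk2 (6.74, 6.47 and 6.49) followed. With 3 arrays, likeness of pattern is a description and many genes come close.

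Other proteasome genes were lower more often on the array with the IgG, whereas Psmb10 was lower on both arrays with SEMA3E. Of 25 listed genes for catalytic subunits, other core subunits, activators and assembly chaperones, 21 lay above the floor. With SEMA3E against control 18 of these were identical and 3 lower, and at least 2 of the 3 stayed lower under each scaling. With SEMA3E and IgG against SEMA3E alone 11 of 21 (52.4%) were lower, 10 identical and 0 higher, with a median of −0.0036, while over all genes 10.3% were lower and 10.2% higher. The proteasome genes are bright, and bright genes differ more often: of the 1850 genes at 12 or more on the log2 scale 22.2% were lower and 25.1% higher, beside 10 lower and 0 higher of the 15 proteasome genes at that level. All 11 stayed lower after quantile normalization. That scaling took the bright B2m, identical as deposited, to −0.05 in this comparison, so it is not an independent check of the direction. Centring and loess left the counts over all genes in this comparison as deposited, so they are not a check of the direction either. Against control the IgG array gave 11 of 21 lower and 0 higher as well, where 11.4% of all genes were lower, and of the 1850 bright ones 537 were lower and 285 higher. Both comparisons share the array with IgG. By the 1.1-fold rule 2 of the 21 were called in each, both lower (9.52%). Over all genes 4.76% were called against SEMA3E alone and 4.55% against control. The 2 genes called were those of the assembly chaperones Psmg2 and Psmg4.

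Psmg2 and Psmg4, chaperone genes for building the core particle, were furthest apart. Psmg2 stood at 9585 units in control medium and with SEMA3E and at 8080 with SEMA3E and IgG, so that the IgG array alone was low (log2 difference −0.25). Psmg4 stood at 7522, 7297 and 6596 units in the same order, the lowest again with the IgG (−0.15 against SEMA3E and −0.19 against control). Of the other chaperones Psmg1 differed by −0.04 and Psmg3 by 0. Pomp, the maturation factor that immunoproteasome assembly also uses, differed by −0.05 between the IgG array and SEMA3E alone. Psma5, a ring subunit of the core, stood at 66999 units on the first arrays and 62450 with the IgG (−0.10), and Psmb1 differed by −0.04. Psmb6 (−0.06) and Psmb7 (−0.03), the catalytic subunits that PSMB9 and PSMB10 replace, were lower on the IgG array too, and identical in the other media. Psme1, a subunit of the interferon-inducible proteasome activator, stayed at 149 units. Psmb5, Psme2 and Nlrc5 lack a probe set of their own and are not analysed here.

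Like most genes above the floor, the loading factors of the endoplasmic reticulum were mostly identical. Of 8 measured, 8 were identical with SEMA3E against control, beside 81.4% of all genes. With the IgG against SEMA3E alone 2 were higher and 6 identical (75%), beside 79.5% of all genes identical. Pdia3, which forms part of the loading complex, stood at 14.51, 14.51 and 14.54 on the log2 scale and the chaperone gene Hspa5 at 11.34, 11.34 and 11.36; both are counted as higher as deposited, and 1 of the 2 lost that direction under another scaling. The lectin chaperone gene Calr (12.49) and Erap1 (8.36), which trims peptides to length, held identical values on all arrays. All 4 cytosolic peptidase genes above the floor were identical on all 3 arrays as well, beside 74.9% of all genes.

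**Figure D3:**
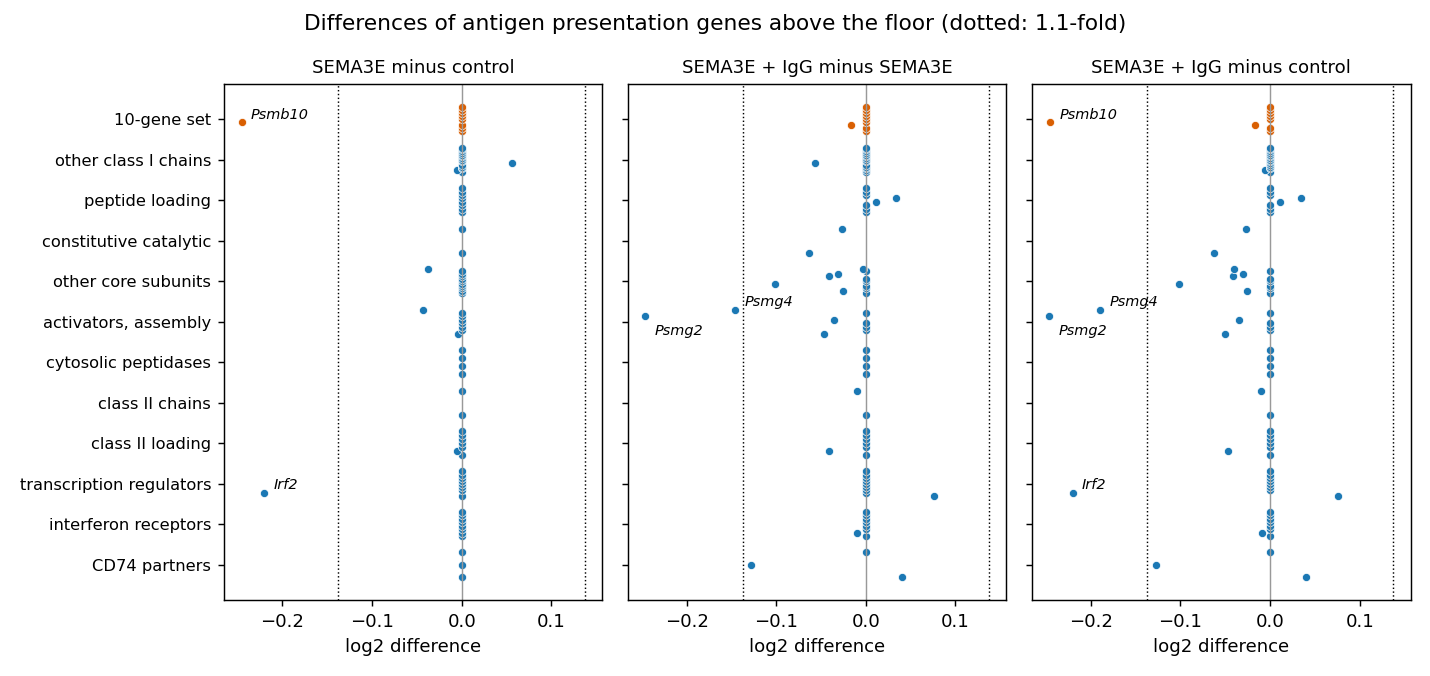
Log2 differences (x axis) of the genes above the floor in 12 groups (rows), 1 point per gene and 1 panel per comparison, with the 10-gene set in orange, other groups in blue and dotted lines at 1.1-fold. In the first panel Psmb10 (−0.25) and Irf2 (−0.22) lie outside the lines, in the second Psmg2 (−0.25) and Psmg4 (−0.15), and in the last all 4, while most points sit at 0.

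The class II chain genes and the probe set of Cd74 lay near or below background. Of 12 class II loading genes measured, 7 lay above the floor. H2-DMb1 (4.90 on the log2 scale), H2-DMb2 (5.10), H2-Oa (3.93), H2-Ob (5.09) and Marchf1 (5.06) lay below it. The probe set annotated to Cd74 is also annotated to the microRNA gene Mir5107, so its value cannot be given to Cd74 alone. It stood at 40.1 units (5.36 on the log2 scale) on all 3 arrays, a log2 difference of −0.12 from the floor, where 39 vomeronasal genes (7.93%) lay at or above it and 70 other probe sets of the control array held the same value. Of the class II chain genes H2-Aa (4.66), H2-Ea (4.12) and H2-Eb2 (5.06) lay below the floor, H2-Ab1 stood at 6.28 on all arrays, and H2-Eb1 at 63.4 units in control medium and with SEMA3E and 63.0 with the IgG. The probe set of Cd74 and Mir5107 and those of the class II alpha chain genes H2-Aa and H2-Ea thus lay below the floor in every medium. This does not show that their RNA was absent. Among the 9 class II chain, exchange and endosomal protease genes above the floor, H2-Eb1 and Ctsl, a lysosomal protease gene (13.74, 13.74 and 13.70), were lower with the IgG and 7 were identical. Over all genes 79.5% were identical between the IgG array and SEMA3E alone. H2-DMa, a peptide exchange gene (8.56), Ctss (6.98), the protease that cuts the invariant chain, and Ifi30 (9.81), a lysosomal thiol reductase gene, were identical.

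Of 5 genes around CD74 as a receptor with a probe set of their own, 3 lay above the floor. Cxcr2 (5.02 on the log2 scale) and Cxcr4 (5.19) lay below it on every array. Mif, whose protein binds CD74, stood at 44376 units on all arrays. Ddt, a relative of Mif, stood at 8.44 in control medium and with SEMA3E and at 8.31 with the IgG (−0.13), and Cd44, which signals beside CD74, at 12.38, 12.38 and 12.42. None of these reached 1.1-fold.

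Of 15 transcription regulators of MHC genes, 9 lay above the floor and Irf2 alone reached 1.1-fold. Over all genes 3.74% reached it either way with SEMA3E against control. Irf2, a factor that binds interferon response elements, stood at 205 units in control medium and 176 units on both arrays with SEMA3E, a log2 difference of −0.22. Its control array was thus the high one, as for Psmb10. Irf1 (5.39), Irf8 (5.10) and Ciita (4.93), the class II master regulator, lay below the floor on every array. Creb1, whose protein binds TGACG elements, stood at 11.04, 11.04 and 11.11. The genes of the CCAAT-binding factor, Nfya (8.72), Nfyb (8.53) and Nfyc (9.92), and of the class II regulators Rfx5 (5.53), Rfxank (9.07) and Rfxap (9.50) were identical on all arrays. Interferon receptors were present: Ifngr1 (9.11), Ifngr2 (9.59) and Ifnar1 (9.76) held identical values, and Ifnar2 differed by −0.0095 with the IgG. Ifng lay below the floor (3.78).

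Over the 77 genes above the floor in all lists of the route beside the 10-gene set, 1 was called at 1.1-fold for SEMA3E against control, 2 for SEMA3E with IgG against SEMA3E alone and 3 for SEMA3E with IgG against control. These shares of 1.3%, 2.6% and 3.9% stand beside 3.74%, 4.76% and 4.55% of all genes, with a median of 0 in each. Under quantile normalization the counts were 1, 3 and 4. Counts this small are not read as a share below that of all genes. In any amount, 6 were lower (7.79%) and 1 higher with SEMA3E against control, beside 12.3% and 6.21% of all genes, and at least 3 of the 6 stayed lower under each scaling. With the IgG against SEMA3E alone 16 were lower (20.8%) and 4 higher, beside 10.3% and 10.2% of all genes. With the IgG against control 17 were lower (22.1%) and 4 higher, beside 11.4% and 7.59% of all genes. Most of the lower ones in the last 2 comparisons were the proteasome genes above.

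Cell type markers were measured beside these values. Neuron markers summed to 98.4% of the control level with SEMA3E and 98.5% with SEMA3E and IgG, with 7 of 11 lower in each and 0 higher (Tubb3 −0.16), in the same arrays where Psmb10 and Irf2 were lower. Over all genes 12.3% and 11.4% were lower, and of the 1850 bright genes 602 and 537 were. Macrophage markers summed to 106% and 104%, and Lyz2, the brightest of them, stood at 2171, 2480 and 2348 units in the 3 media. With SEMA3E 2 of 8 were higher and 1 lower (Lyz2 0.19, Cx3cr1 0.04, Cd68 −0.08). With SEMA3E and IgG 1 was higher and 2 lower against control (Lyz2 0.11, Adgre1 −0.04, C1qa −0.04). Itgam, Csf1r, C1qb, C1qc, Mrc1, Fcgr1 and Ptprc lay below the floor. The 3 dendritic and B cell markers above the floor and the 1 T and NK cell marker were identical on all arrays. Satellite glia markers summed to 104% and 98.2%, and their genes went apart. Kcnj10, a glial potassium channel gene, stood at 399 units in control medium, 337 with SEMA3E and 273 with SEMA3E and IgG (−0.24 and −0.54 against control), the furthest apart in any list. Fabp7, a fatty acid binding protein gene and the brightest of that list, was higher with SEMA3E alone (0.13), and the other 3 were identical. Schwann cell markers summed to 99.7% and 99.6%, with Ngfr lower with SEMA3E alone (−0.13) and S100b lower on both arrays (−0.06 and −0.13). Fibroblast markers summed to 99.8% and 104%, with Fn1 lower with SEMA3E (−0.06) and Postn higher with the IgG (0.07). Endothelial and mural markers summed to 99.9% in both, and Cldn5, a tight junction gene, was lower on both (−0.16). The part of these shifts in the Psmb10 difference was not tested, and in RNA from a whole culture fewer cells of a type and less RNA per cell cannot be told apart.

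**Figure D4:**
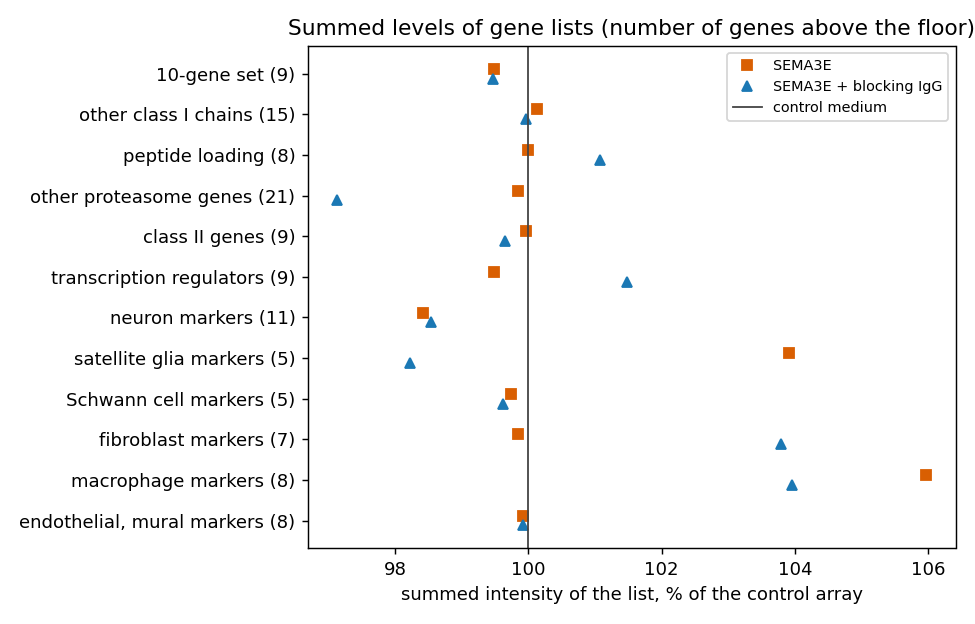
Summed intensity of each list's genes above the floor as a percentage of the control array (x axis), for the array with SEMA3E (squares) and with SEMA3E and IgG (triangles); the line at 100 is control medium and the number of genes is in parentheses. The 10-gene set lies at 99.5% on both arrays and other proteasome genes at 97.1% with the IgG, while neuron markers lie below 100 on both and macrophage markers above it; a sum is carried by its brightest genes.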

How the data were processed

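RNA from 3 cultures was extracted, labelled with biotin (GeneChip WT Pico kit, per the labels) and hybridised, 1 array per medium. The authors deposited 1 intensity per probe set, and per the submitters' processing notes Affymetrix Expression Console made it. Not given in the sources used here: its version, how probes were summarised and scaled, and the build. The intensities are linear, so log2(value + 1) was used.

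Probe sets were named by the platform annotation: 30604 of 65956 had a single symbol, 2146 several and 33206 none, and 827 symbols were updated through gene numbers with RefSeq (GRCm38.p6). The brightest probe set stood for a gene, and Cd74 was taken from a probe set with 2 symbols because the set was defined by annotation. Promoters are RefSeq's, 250 bases before to 50 after a start. Members and lists were chosen with earlier results of these data known. All members were named, and in each list the genes at least 1.1-fold apart or otherwise those furthest apart, a fixed group of regulators and subunits, and the 5 genes nearest Psmb10 in pattern; a few flat genes were named in addition for their role. Counting was tested on simulated shifts. The planned comparison of protein sequences was not run. Python 3.11.15, numpy 2.4.6, pandas 2.3.3, statsmodels 0.14.6 and matplotlib 3.10.9 were used. The 9 alternatives are given in the closing section.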

Additional observations from a re-analysis of the deposited data

How the results depend on the processing

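The log2 differences of the 9 members with a probe set of their own were recomputed under median centring, quantile normalization, loess, an offset of 16, the mean or the dimmest of a gene's probe sets, and no filter on low values. All 189 recomputed values lay within 0.05 of those reported, a tolerance set in place of a replicate spread. Many of them could not move. Each member had 1 probe set, so the mean and the dimmest returned the reported value, and the filter does not enter a difference. Loess returned the reported values as well, so only centring, quantile normalization and the offset could change a member. Psmb10 ranged from −0.25 to −0.24 against control in both comparisons. Members with identical values ranged from −0.05 to 0.0097, the sign then being that of the scaling. Under the scalings the median of all genes moved by at most 0.0062.

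Under the scalings, offset, probe set and filter choices the counts of members called stayed as reported. The counts of other presentation genes did too, except that under quantile normalization they rose from 2 to 3 for SEMA3E with IgG against SEMA3E alone and from 3 to 4 for SEMA3E with IgG against control. The fold used for a call moved the counts further. With any difference counted, the members called became 1 for SEMA3E with IgG against SEMA3E alone and 2 for SEMA3E with IgG against control, and the other presentation genes became 7, 20 and 21 for SEMA3E against control, SEMA3E with IgG against SEMA3E, and SEMA3E with IgG against control. At 1.5-fold, members and other presentation genes came to 0 in every comparison. No paired analysis was possible because each medium has 1 array, and leaving out an array was not possible for the same reason. Tap1, Tap2, Psmb9 and Cd74 lie close to or below the background floor.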

Other observations

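The other genes of the MHC region on the same chromosome stretch were mostly identical. Of 37 listed, 33 had a probe set of their own and 30 lay above the floor. All 30 were identical with SEMA3E against control, beside 81.4% of all genes above the floor, and 29 were identical with the IgG against SEMA3E alone, beside 79.5%. Ddah2, which breaks down an inhibitor of nitric oxide synthesis, stood at 406 units in control medium and with SEMA3E and at 388 with SEMA3E and IgG (log2 difference −0.07). The chromatin reader gene Brd2 (2417 units), the tubulin gene Tubb5 (24801 units) and the receptor gene Notch4 (74.8 units) held identical values on all 3 arrays. The complement genes Cfb and C2 lay below the floor, and C4b stood at 63.0 units on every array.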
